A study of Danio rerio with 30 samples.

Results

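The proteasome genes of the zebrafish (Danio rerio) embryo were followed through the maternal-to-zygotic transition in the 54 genes whose symbols begin with psm, a letter from a to g and a digit, out of 35117 genes in the tables. Of these, 53 encode a subunit, a regulator or an assembly factor of the proteasome. The exception, psmc3ip, is named for a protein that binds a proteasome ATPase and acts in meiotic recombination, and its values are given apart. The study profiled 30 RNA-seq libraries of whole embryos, with 1 library for each condition and hour. Embryos injected at the 1-cell stage with 200 ng/µl α-amanitin, a toxin that blocks RNA polymerase II and so prevents zygotic transcription, gave 12 poly(A)-selected libraries at steps of 0.5 h between 2 and 7.5 hours post-fertilization (hpf). Uninjected wild-type embryos gave 9 poly(A)-selected and 9 ribosomal RNA-depleted (Ribo-Zero) libraries, 1 for every hour from 0 to 8 hpf. Embryos with a mock injection were not analysed here, so the toxin and the injection cannot be told apart.

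The 26S proteasome degrades proteins that carry ubiquitin chains. Its 20S core is a barrel of alpha and beta rings, and the beta subunits psmb5, psmb6 and psmb7 carry the chymotrypsin-like, caspase-like and trypsin-like active sites. The 19S cap holds the psmc ATPases, which unfold the substrate, and psmd subunits. The psmd subunits include scaffold subunits, the ubiquitin receptor Psmd4 and the deubiquitinase Psmd14, and some other psmd genes encode assembly factors. Other rings and proteins can take the place of the cap or bind the core, among them Psme1 and Psme2 (PA28 alpha and beta), Psme3 (PA28 gamma), Psme4 (PA200) and Psmf1 (PI31). Eggs are supplied with proteasome mRNA by the mother, and the embryo later transcribes its own.

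Values are in TPM, the unit of the deposited tables, a share of each library's RNA corrected for transcript length, so that a gene's TPM moves also when other genes change. With 1 library per hour there were no replicates, and neighbouring hours were used in their place. The p-values therefore measure the scatter between hours around a window mean or a line, which may be developmental or technical. The libraries listed between 11919 and 16194 genes at 1 TPM or more. Mitochondrial genes took 6.30% to 14.1% of TPM in the poly(A) libraries, and 1.15% to 1.87% in the Ribo-Zero libraries. In the α-amanitin libraries the summed level of 3 mesendoderm markers (tbxta, tbx16 and sox32) was at most 0.17 TPM, that of 3 enveloping layer keratins at most 1.69 TPM and that of 3 yolk syncytial layer apolipoproteins at most 1.75 TPM. In wild-type poly(A) libraries the same sums reached 952 TPM, 6458 TPM and 5325 TPM. These marker sums differed with hour and treatment, and their part in the psm results was not tested. In whole embryos, fewer cells of a type and less RNA per cell cannot be told apart.

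The psm genes together took 0.322% to 0.467% of all TPM in the α-amanitin libraries. Wild-type poly(A) libraries held 0.198% in the first hour sampled (0 hpf) and 0.469% in the last (8 hpf), and Ribo-Zero libraries lay between 0.181% (6 hpf) and 0.255% (0 hpf). A single gene weighed heavily in these sums. Psme3, which encodes a nuclear activator ring, held 12.8% to 21.7% of the psm TPM in α-amanitin libraries and 40.3% in wild-type poly(A) RNA at 0 hpf, but 3.91% there at 8 hpf. In Ribo-Zero RNA psme3 held 9.98% of the psm TPM at fertilization, 13.8% by 5 hpf and 4.90% by 8 hpf.

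**Figure D1:**
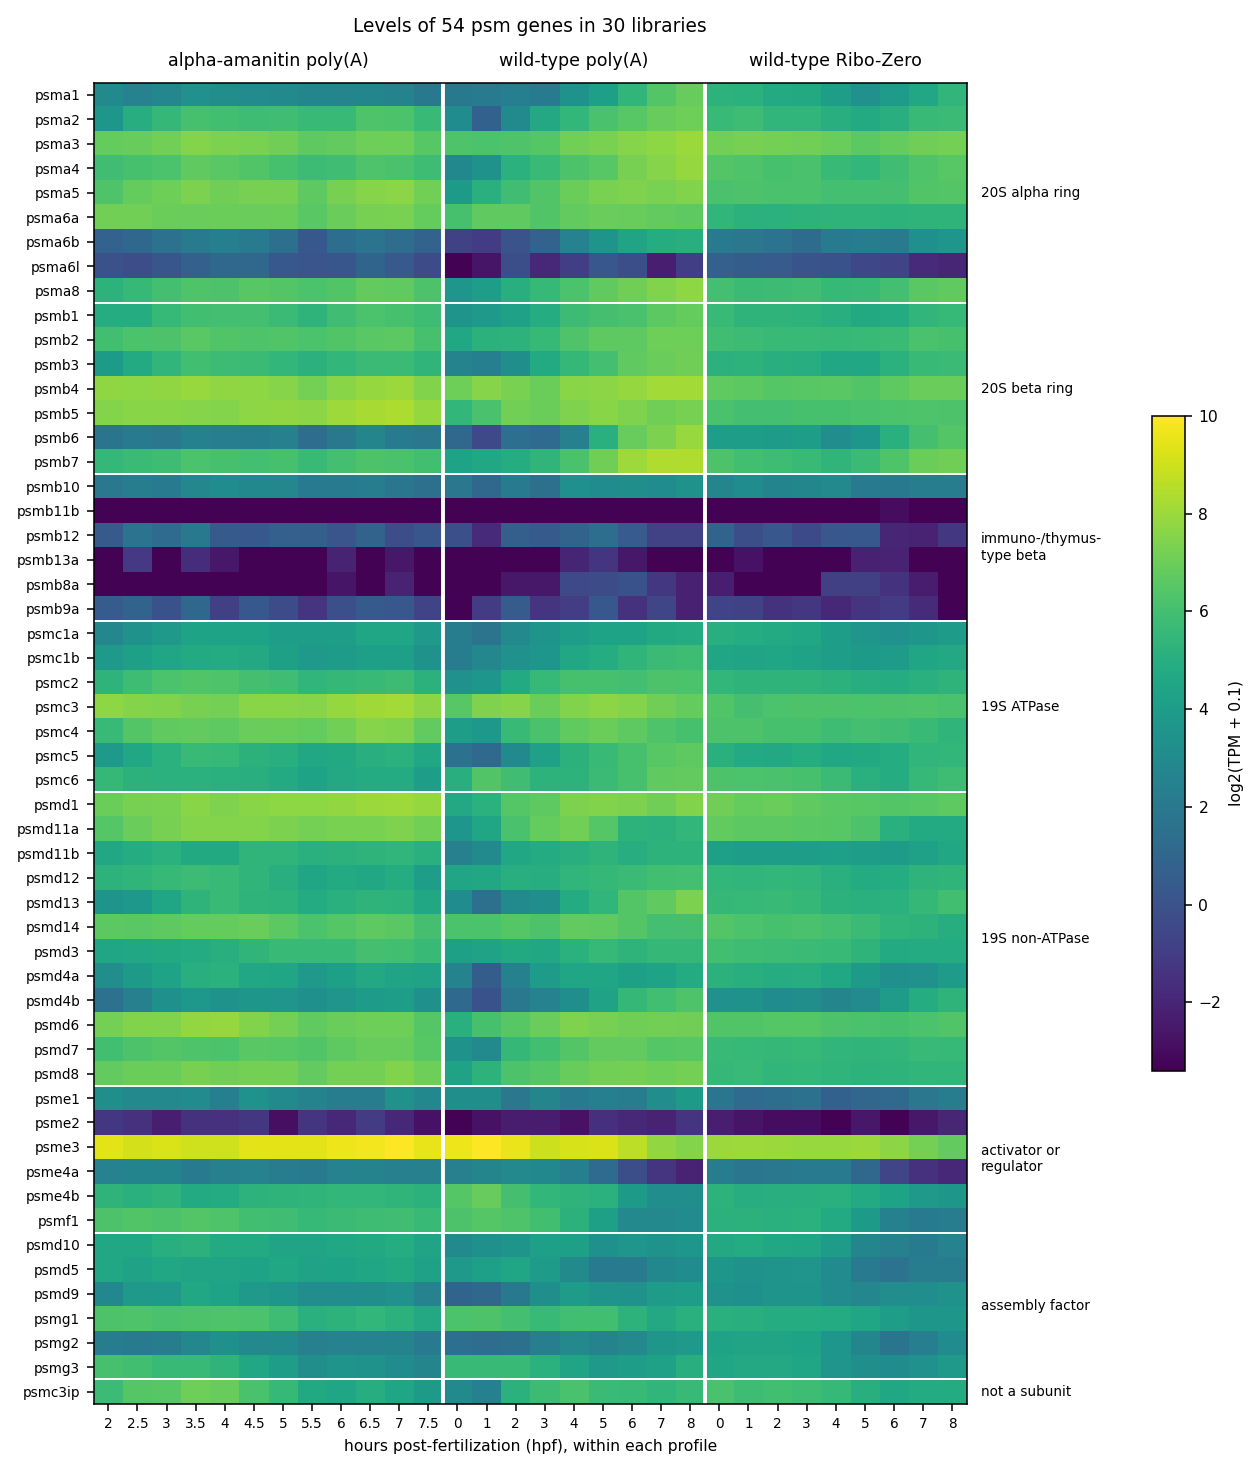
Heat map of log2(TPM + 0.1) for the 54 psm genes (rows, grouped by role) in 30 libraries (columns, hours post-fertilization within the α-amanitin poly(A), wild-type poly(A) and wild-type Ribo-Zero profiles). Psme3 is the brightest row in each α-amanitin library and in wild-type poly(A) RNA at 0 to 6 hpf, psmb11b, psmb8a, psmb13a and psme2 stay dark in all 30 libraries, and the core subunits are darkest in wild-type poly(A) RNA at 0 and 1 hpf.

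The subunits of the constitutive particle were all present in total RNA from fertilization onward. Their levels were compared over 30 core subunits, with the TPM of duplicate copies added. In Ribo-Zero RNA at 0 hpf the median of these subunits was 60.5 TPM, the lowest was psmb6 at 17.4 TPM and the highest was psma3 at 142 TPM. The median was 41.9 TPM at 6 hpf and 54.8 TPM at 8 hpf. The spread between subunits in Ribo-Zero RNA was narrow, with an SD of log2 TPM between 0.61 and 0.81 over the 9 hours. In poly(A) RNA the subunits were far less even in the α-amanitin libraries and in early wild-type libraries. At 6, 7 and 8 hpf wild-type poly(A) RNA (SD 0.71, 0.64 and 0.69) was close to Ribo-Zero RNA (0.69, 0.63 and 0.61). The SD of log2 TPM lay between 1.24 and 1.54 in the α-amanitin libraries, and among wild-type poly(A) libraries it was widest at 1 hpf (2.05) and narrowest at 7 hpf (0.64). Psmb6, the caspase-like subunit, was the lowest of the 30 in every α-amanitin library, where it lay between 2.54 and 6.34 TPM. It was also the lowest in wild-type poly(A) RNA at each hour from 0 to 4 hpf, but not from 5 hpf on.

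Of the alternative catalytic subunits of immune and thymic proteasomes, all but psmb10 and psmb12 stayed at or below 2.10 TPM. Psmb11b, named for the thymus-specific beta subunit of mammals, was listed at 0 in 29 of 30 libraries and at 0.03 TPM in the other. Psmb8a, which in the immunoproteasome stands in for Psmb5, reached 0.13 TPM in α-amanitin, 0.88 TPM in wild-type poly(A) and 0.46 TPM in Ribo-Zero libraries. Psmb13a reached at most 0.34 TPM. Psmb9a, the counterpart of Psmb6, lay between 0.29 and 2.10 TPM in α-amanitin libraries, and was at most 1.29 TPM in wild-type poly(A) and 0.52 TPM in Ribo-Zero RNA. Psmb12 reached 3.94 TPM, in the α-amanitin library of 3.5 hpf. Psmb10, the counterpart of Psmb7, was the one member of this group that exceeded 4 TPM, with 4.02 to 8.61 TPM in the Ribo-Zero libraries. It had 2.80 to 8.67 TPM in α-amanitin and 2.02 to 10.6 TPM in wild-type poly(A) libraries. At 4 hpf psmb10 lay above the standard subunit psmb6 in both poly(A) libraries (8.67 against 4.90 TPM in α-amanitin, 9.93 against 5.34 TPM in wild type). Psmb13a, psmb8a, psmb12 and psmb9a lie next to each other, in that order, on chromosome 19 of the RefSeq annotation of assembly GRCz12tu, followed by tap2a, a peptide transporter gene. In the activator group, psme2 did not exceed 0.37 TPM in any library, while its partner psme1 lay between 1.57 and 15.1 TPM.

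The poly(A) and Ribo-Zero libraries of one hour share the embryo stage, so their ratio reflects how well an mRNA was captured by its poly(A) tail. As a ratio of TPM values, it also moves with the other RNA in each library. For most psm genes this ratio was low at fertilization and high by 4 hpf. On the log2 scale its median over 47 psm genes was -1.89, -1.53, -0.51 and -0.04 for the hours 0, 1, 2 and 3. For the hours 4, 5, 6, 7 and 8 the median was 0.62, 1.01, 1.12, 0.98 and 0.95. The ratio was below 0 for 36 of 47 psm genes at 0 hpf, and for 2 of 47 at 8 hpf. The share of all genes below 0 was not counted, so these counts do not set the psm genes apart. Over all 15121 genes the median also changed sign, with -1.52 at 0 hpf and 0.33 at 8 hpf.

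**Figure D2:**
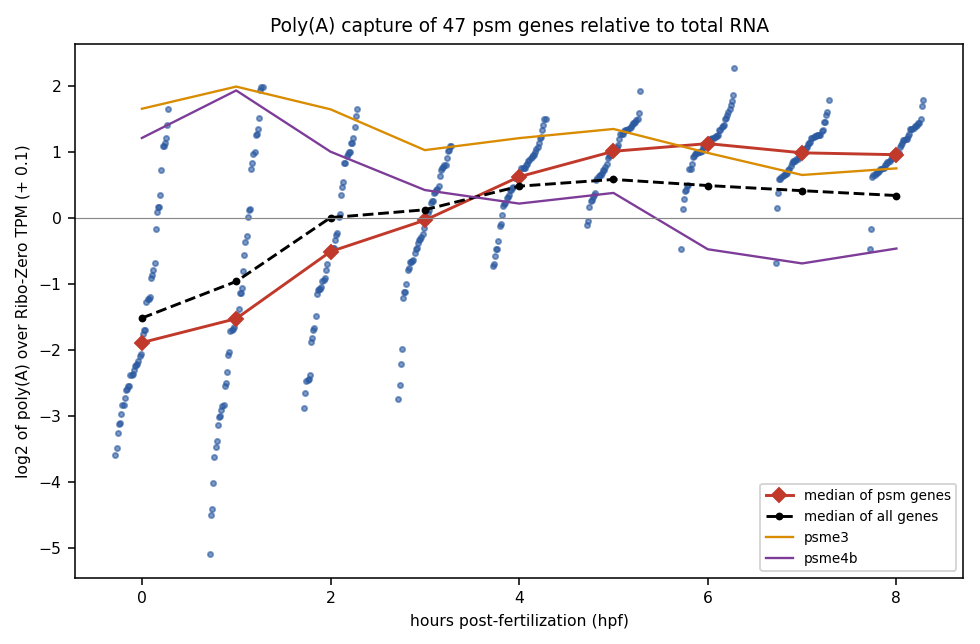
Log2 of poly(A) over Ribo-Zero TPM (y axis, 0.1 TPM added to each) for 47 psm genes at each hour post-fertilization (x axis), with points ordered by value within an hour. The psm median (diamonds) is -1.89 at 0 hpf and 0.95 at 8 hpf and the median of all genes (dashed line) -1.52 and 0.33, while psme4b is above 0 until 5 hpf and below it from 6 hpf.

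The change in ratio was tested as the mean of the 6 library pairs at 3 to 8 hpf minus that of the 2 pairs at 0 and 1 hpf, with limma across all genes of at least 1 TPM on average and Benjamini-Hochberg adjustment. The ratio rose for 35 of 47 psm genes tested, against 58.2% of all genes tested, and fell for 2, against 5.83%. When libraries were instead scaled on the median of maternal genes, 21 psm genes rose, against 19.2% of all genes, and 12 fell, against 22.3%. The median psm change was 2.67 log2 units, against 1.47 over all genes, and under that scaling it was 1.06 against 0.08. All 12 cap subunits of the psmd group passed the test upward in TPM, as did 7 of 8 alpha and 6 of 7 standard beta subunits, although under maternal-gene scaling psmd12, psmd14, psma3 and psmb5 took the opposite sign.

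Among single genes, psma2, an alpha ring subunit, had 8.56 and 1.59 TPM in poly(A) RNA at 0 and 1 hpf, against 50.5 and 57.5 TPM in Ribo-Zero RNA. At 7 and 8 hpf it had 117 and 134 TPM in poly(A) RNA, against 49.3 and 52.8 TPM in Ribo-Zero RNA. Over the 9 hours its Ribo-Zero level lay between 27.9 TPM (5 hpf) and 57.5 TPM, and its poly(A) level between 1.59 and 134 TPM. The log2 ratio of psma2 rose by 4.67 ± 0.69 (SE, limma adjusted p = 0.000173), and with maternal-gene scaling by 3.08. The ratio of psmc5, a cap ATPase, rose by 4.29 ± 0.46 (adjusted p = 3.08e-05), and that of psma4 by 4.06 ± 0.47 (adjusted p = 4.13e-05). For psmb6 the rise was 4.17 ± 1.05 (adjusted p = 0.00486), a call lost without the 1 hpf libraries (3.41) and with maternal-gene scaling.

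Not all psm genes rose in poly(A) over total RNA. None of the 5 activators and regulators tested passed upward. Neither did psma6a, psmb4, psmc3, psmc6 and 3 of 6 assembly factors (psmd5, psmg1 and psmg3). In TPM the genes that fell were the activators psme4b and psme3. With maternal-gene scaling all 5 activators and regulators fell, and so did psm genes of other roles. Psme4b, a copy of the PA200 gene, had 89.6 and 119 TPM in poly(A) RNA at 0 and 1 hpf, against 38.7 and 31.2 TPM in Ribo-Zero RNA. At 7 and 8 hpf it had 8.90 and 9.24 TPM in poly(A) RNA, against 14.5 and 12.8 TPM in Ribo-Zero RNA. Its log2 ratio fell by 1.67 ± 0.38 (SE, limma adjusted p = 0.00271). For psme3 the fall was 0.83 ± 0.27 (adjusted p = 0.0186), and this call was lost without the 1 hpf libraries. There 1 psm gene fell, against 431 of all 15306 genes tested.

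In wild-type poly(A) RNA the core and cap genes were mostly higher at 5 to 8 hpf than at 0 to 3 hpf, and most regulators were lower. With 4 libraries in each window (5 to 8 against 0 to 3 hpf), 28 of 48 psm genes tested rose, against 30.1% of all genes tested, and 6 fell, against 20.3%. Under maternal-gene scaling 32 rose, against 38.3% of all genes, and 3 fell (psme4a, psme4b and psmf1), against 19.2%. Without the 2 hpf library 3 fell as well, against 2288 of all 15949 genes tested. The median psm difference was 1.56 log2 units, against 0.15 over all genes, and with that scaling 1.87 against 0.55. The values did not overlap between windows for 30 psm genes that were higher late (28.8% of all genes) and for 5 that were lower late (14.5%). By role, 7 of 8 alpha ring, 5 of 7 standard beta ring, 5 of 7 cap ATPase and 8 of 12 other cap genes rose and none fell, whereas 4 of 5 activators fell and none rose.

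Psmb6 showed the steepest rise in poly(A) RNA. It had 34.6, 119, 161 and 243 TPM at 5, 6, 7 and 8 hpf, against 2.11, 0.64, 2.69 and 2.36 TPM at 0, 1, 2 and 3 hpf. The windows were widely separated, with a log2 difference of 5.95 ± 0.67 (SE, limma adjusted p = 3.15e-05). Psmb7, the trypsin-like subunit, had 136, 261, 345 and 345 TPM late, against 20.4, 23.5, 29.6 and 41.8 TPM early (log2 difference 3.19 ± 0.42, adjusted p = 0.000105). The third catalytic subunit, psmb5, had a different course. It had 196, 171, 139 and 152 TPM late, against 44.2, 70.01, 141 and 126 TPM early, so that the windows overlapped. The largest rises after psmb6 were those of psma6b, a minor copy of an alpha ring gene (4.72 ± 0.58, adjusted p = 6.38e-05), of psmd4b, a copy of the gene for a ubiquitin receptor of the cap (4.12 ± 0.65, adjusted p = 0.000365), and of psma2 (3.78 ± 0.71, adjusted p = 0.00124).

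Of the genes that fell in poly(A) RNA, psme4a had 2.35, 0.77, 0.30 and 0.14 TPM at 5 to 8 hpf, against 5.37, 6.35, 7.51 and 7.03 TPM at 0 to 3 hpf (log2 difference -3.30 ± 0.70, limma adjusted p = 0.00271). Psmf1, whose product in mammals inhibits the core in vitro, had 18.7, 7.27, 7.51 and 8.26 TPM late, against 77.4, 89.3, 78.6 and 61.5 TPM early (-2.97 ± 0.44, adjusted p = 0.000222). Both genes had no overlap between the windows. Psme4b changed by -2.36 ± 0.54 (adjusted p = 0.00404) and psmd5, a chaperone of cap assembly, by -1.53 ± 0.45 (adjusted p = 0.0159). Psme3 had 638, 407, 229 and 183 TPM late, against 797, 1040, 777 and 504 TPM early, with 1 late library inside the early range (-1.22 ± 0.42, adjusted p = 0.0311). The remaining call was psmg3, a chaperone of core assembly, with 14.1, 16.6, 19.1 and 32.2 TPM late, against 48.9, 51.5, 52.2 and 35.6 TPM early. With maternal-gene scaling the calls of psme3, psmd5 and psmg3 were lost. They were also lost on leaving out 1 library, that of 0, 1, 2, 7 or 8 hpf for psme3, of 2 or 6 hpf for psmd5 and of 1, 2, 6 or 7 hpf for psmg3.

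In total (Ribo-Zero) RNA the same windows gave a much flatter picture for the core. Of 47 psm genes tested, 1 rose between the windows, against 22.1% of all genes, and 18 fell, against 57.2%, whereas under maternal-gene scaling 34 rose, against 45.7% of all genes, and 3 fell (psme4a, psmf1 and psmd10), against 20.1%. The direction for most of the family thus depended on the scaling. Relative to the other genes the position was steadier, with a psm median of -0.29 log2 units against -0.92 over all genes in TPM, and 1.06 against 0.54 with the scaling. The values did not overlap for 21 psm genes that were lower late (55.1% of all genes) and for 1 that was higher late (19.8%). None of the 7 standard beta ring genes and none of the 8 alpha ring genes tested fell in TPM, while 5 of 6 assembly factors and 3 of 5 activators did, of which only psmd10, psme4a and psmf1 fell under both scalings.

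The riser was psma6b, with 4.53, 4.39, 9.92 and 12.5 TPM at 5, 6, 7 and 8 hpf, against 4.11, 3.60, 3.19 and 2.47 TPM at 0, 1, 2 and 3 hpf (log2 difference 1.08 ± 0.39, SE, limma adjusted p = 0.0307). This call was lost when the library of 1, 2, 3, 7 or 8 hpf was left out. Without the 5 hpf library 6 psm genes rose (psma6b, psma8, psmb3, psmb6, psmb7 and psmd4b), against 3948 of all 15757 genes tested. Psmb6 had 12.2, 34.7, 67.2 and 86.5 TPM late, against 17.4, 16.7, 15.4 and 16.4 TPM early. Only its 5 hpf library lay below the early values, and the difference of 1.27 ± 0.54 did not pass (adjusted p = 0.0545). Psmb7 fell short as well, with 52.4, 79.4, 127 and 136 TPM late, against 75.9, 61.7, 57.6 and 51.5 TPM early (0.59 ± 0.30, adjusted p = 0.0990). Both genes were lowest at 4 hpf, psmb6 with 8.78 TPM and psmb7 with 40.5 TPM. Psmb5 had 70.1 to 78.0 TPM in the late window, against 64.1 to 71.6 TPM in the early window, the narrowest course of the catalytic subunits.

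Among the genes that fell in total RNA, psme4a had 2.10, 0.56, 0.26 and 0.17 TPM late, against 4.80, 3.52, 3.87 and 4.22 TPM early (log2 difference -2.77 ± 0.62, SE, limma adjusted p = 0.00336). Psmf1 had 14.8, 5.44, 4.49 and 4.67 TPM late, against 36.5, 37.0, 33.8 and 36.1 TPM early (-2.46 ± 0.36, adjusted p = 0.000438). These genes dropped in both kinds of RNA. Psmd10, the chaperone gankyrin, had 6.59, 5.22, 4.44 and 5.71 TPM late, against 25.5, 28.5, 24.2 and 22.3 TPM early (-2.18 ± 0.19, adjusted p = 3.19e-05). Psmg2, a core assembly chaperone, had 6.52, 3.38, 5.00 and 8.72 TPM late, against 20.1, 21.2, 21.8 and 20.3 TPM early (-1.88 ± 0.29, adjusted p = 0.000504), but in poly(A) RNA it rose, with 6.01, 7.38, 12.7 and 14.1 TPM late, against 2.72, 2.53, 2.85 and 5.02 TPM early. The call of psmg2 in total RNA was lost with maternal-gene scaling, and that in poly(A) RNA without the library of 1, 2, 7 or 8 hpf. Psmd14, the deubiquitinase of the cap, had 53.0, 41.8, 37.9 and 31.3 TPM late, against 83.9, 74.3, 69.7 and 70.6 TPM early, and its difference of -0.88 ± 0.18 (adjusted p = 0.00224) turned to 0.47 with maternal-gene scaling.

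**Figure D3:**
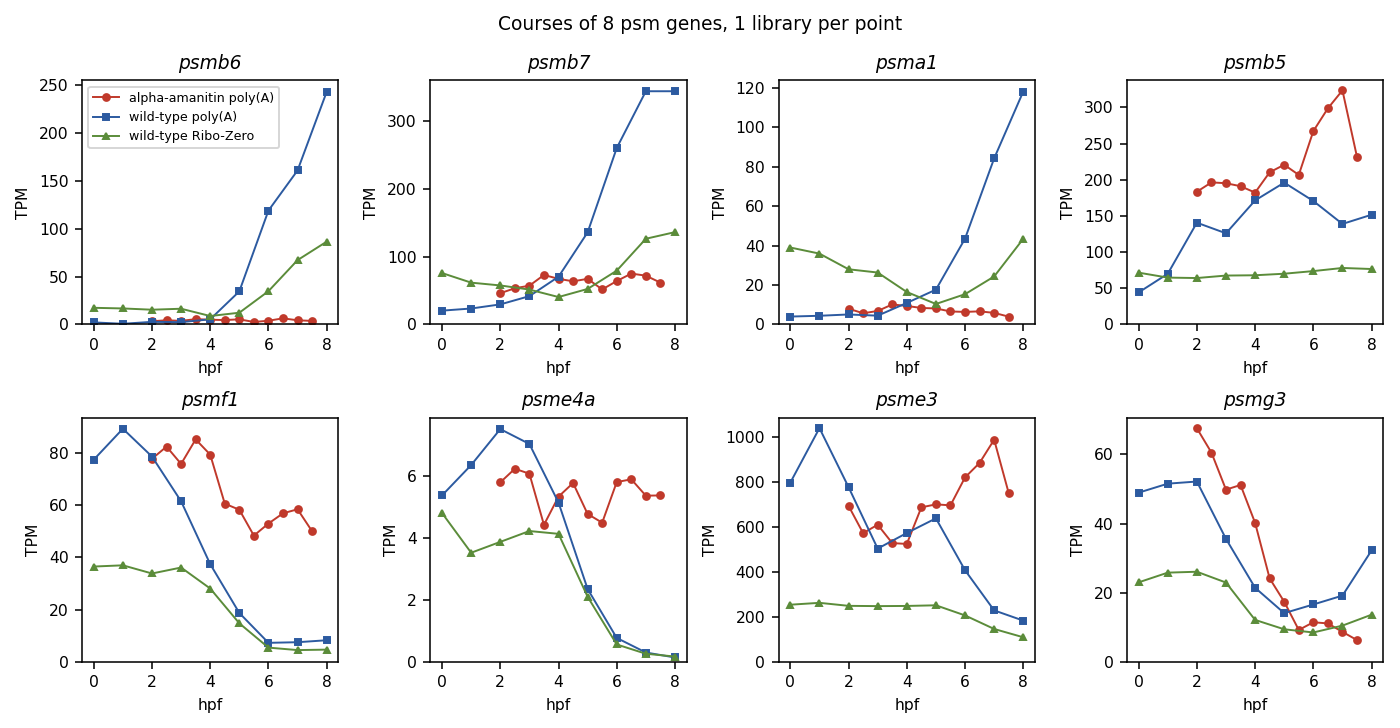
TPM (y axes, each from 0) against hours post-fertilization (hpf) for 8 psm genes in the α-amanitin poly(A) (circles), wild-type poly(A) (squares) and wild-type Ribo-Zero (triangles) libraries, 1 library per point. Psmb6 stays between 2.54 and 6.34 TPM in the α-amanitin libraries and reaches 243 TPM in wild-type poly(A) RNA at 8 hpf, whereas psmf1 is at 58.4 TPM in α-amanitin and at 7.51 TPM in wild-type poly(A) RNA at 7 hpf.

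Blocking zygotic transcription separates maternal mRNA from what the embryo transcribes. At 4, 5, 6 and 7 hpf, when both treatments have a poly(A) library, 6 of 48 psm genes tested were lower in α-amanitin, against 21.8% of all genes tested, and 5 were higher, against 23.8%. With maternal-gene scaling 20 were lower, against 30.2% of all genes, and 3 were higher, against 9.23%. With hour as a factor in the fit, which compares the treatments within each hour, 1 was lower (psmb6), against 13.1% of all genes, and 2 were higher (psmf1 and psmd5), against 3.94%. The treatments differed before these hours as well. At 2 and 3 hpf limma called 0 psm genes lower (1 at an unadjusted p under 0.05), against 3.67% of all genes, and 13 higher in α-amanitin, against 8.69%. That fit had only 2 libraries for each treatment. At 2 and 3 hpf the median psm difference was 0.51 log2 units, against 0.16 over all genes. At 4 to 7 hpf it was -0.11 log2 units, against 0.40 over all genes, and with the scaling -0.80 against -0.33. The 4 libraries of each treatment did not overlap for 4 psm genes lower in α-amanitin (15.8% of all genes) and for 5 higher in α-amanitin (12.7%). These counts rested on few libraries. Without the hour 4 libraries 13 psm genes were lower and 8 higher, against 4519 and 5626 of all 15998 genes tested. Without hour 5 the counts were 0 and 2, against 1664 and 381 of 16040. Without hour 6 they were 0 and 1 (1211 and 88 of 16032), and without hour 7 they were 0 and 2 (1539 and 288 of 15899). The counts over all genes thus moved as well.

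**Figure D4:**
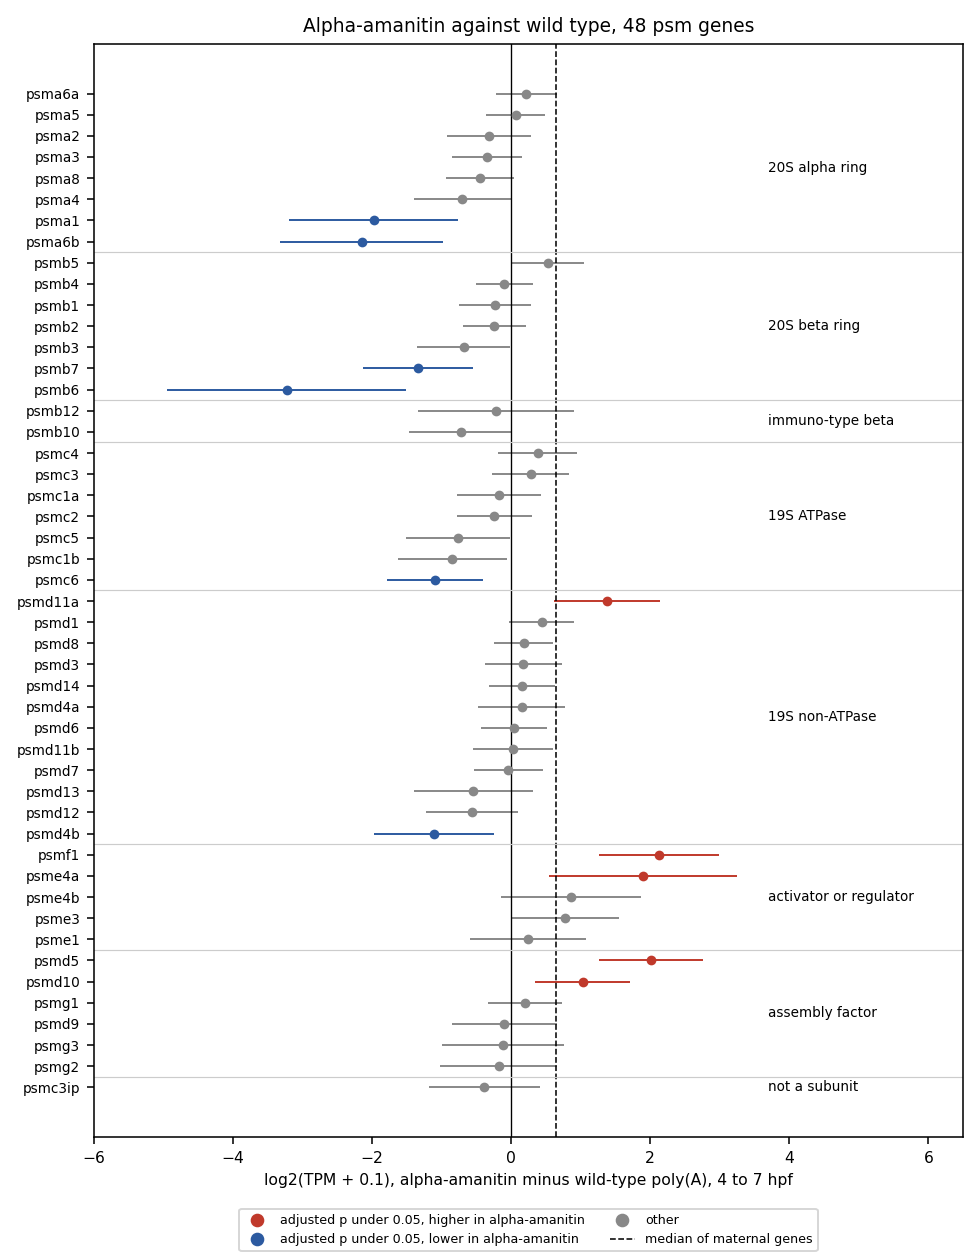
Log2 difference (x axis, α-amanitin minus wild-type poly(A), log2(TPM + 0.1), 4 libraries each at 4 to 7 hpf) for 48 psm genes grouped by role, with 95% confidence intervals from limma. Blue points passed the test as lower and red points as higher in α-amanitin in TPM (with maternal-gene scaling 20 lower and 3 higher), and the dashed line marks the median of maternal genes at 0.64.

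The 6 genes that were lower in α-amanitin were 2 of 8 alpha ring, 2 of 7 standard beta ring, 1 of 7 cap ATPase and 1 of 12 other cap genes tested. These roles made up most of the 48 psm genes tested, so the calls do not set them apart. Psmb6 had 4.90, 5.31, 3.85 and 4.31 TPM in α-amanitin, against 5.34, 34.6, 119 and 161 TPM in wild type at 4, 5, 6 and 7 hpf. Its log2 difference was -3.23 ± 0.76 (SE, limma adjusted p = 0.0128). The treatments were close at 4 hpf and parted from 5 hpf on. Psma1, an alpha ring subunit, had 9.36, 8.09, 6.34 and 5.85 TPM in α-amanitin, against 10.9, 17.6, 43.5 and 84.2 TPM in wild type (-1.98 ± 0.54, adjusted p = 0.0211). Psma6b had 5.08, 2.86, 2.66 and 2.53 TPM in α-amanitin, against 5.70, 11.5, 21.5 and 29.5 TPM in wild type (-2.15 ± 0.52, adjusted p = 0.0140). Psmb7 had 67.4, 67.4, 64.1 and 72.0 TPM in α-amanitin, against 70.4, 136, 261 and 345 TPM in wild type (-1.34 ± 0.35, adjusted p = 0.0183), with 1 α-amanitin library above the lowest wild-type one. Psmd4b and the cap ATPase gene psmc6 were the other calls, psmd4b with a difference of -1.10 ± 0.38 (adjusted p = 0.0433) and psmc6 with 34.1, 27.2, 25.2 and 28.8 TPM in α-amanitin, against 38.0, 53.2, 67.3 and 104 TPM in wild type. Leaving out the libraries of 5, of 6 or of 7 hpf alone ended each of these 6 calls, and with hour as a factor only that of psmb6 was kept (adjusted p = 0.0498). At 2 and 3 hpf psmc6 was already lower, with 45.6 and 35.8 TPM in α-amanitin, against 60.0 and 39.0 TPM in wild type. The log2 differences of the other calls were above 0 there.

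The genes that were higher in α-amanitin were regulators, assembly factors and a cap subunit. Psmf1 had 79.4, 58.3, 53.0 and 58.4 TPM in α-amanitin, against 37.4, 18.7, 7.27 and 7.51 TPM in wild type (log2 difference 2.13 ± 0.38, SE, limma adjusted p = 0.00419). This call was lost without the 6 hpf libraries. Psmd5 had 21.3, 24.0, 20.6 and 26.8 TPM in α-amanitin, against 7.71, 4.15, 4.45 and 7.02 TPM in wild type (2.01 ± 0.33, adjusted p = 0.00257), and it passed whichever hour was left out. Psme4a had 5.33, 4.77, 5.80 and 5.36 TPM in α-amanitin, against 5.14, 2.35, 0.77 and 0.30 TPM in wild type (1.89 ± 0.60, adjusted p = 0.0329). Psmd11a, a copy of the gene for a scaffold subunit of the cap, had 181, 165, 156 and 171 TPM in α-amanitin, against 142, 89.2, 38.2 and 36.3 TPM in wild type (1.37 ± 0.34, adjusted p = 0.0149). Psmd10 was the fifth, with 27.4, 21.7, 24.8 and 29.5 TPM in α-amanitin, against 18.8, 10.04, 12.1 and 10.8 TPM in wild type. It was already higher at 2 and 3 hpf, with 23.7 and 32.3 TPM in α-amanitin, against 11.3 and 17.6 TPM in wild type (log2 difference 0.96, limma adjusted p = 0.000533). That fit had only 2 libraries for each treatment, so its p-value rests on little scatter of the gene's own. Psmd11a and psmd5 were also higher at both of these hours, psmf1 only at 3 hpf, and psme4a was lower at both. Psmd11a had 88.9 and 153 TPM in α-amanitin, against 69.9 and 115 TPM in wild type. The calls of psme4a, psmd11a and psmd10 were each lost with hour as a factor and without the libraries of 5, of 6 or of 7 hpf, and those of psme4a and psmd10 also with maternal-gene scaling.

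The activator psme3 did not pass in this comparison (adjusted p = 0.0821). It had 524, 700, 820 and 988 TPM in α-amanitin, against 573, 638, 407 and 229 TPM in wild type. Psmb5 also missed the threshold (adjusted p = 0.0787), with 182, 221, 267 and 324 TPM in α-amanitin, against 171, 196, 171 and 139 TPM in wild type. The 3 catalytic subunits thus stood at different places, as psmb6 and psmb7 were lower in α-amanitin and psmb5 had the higher α-amanitin TPM at each of these hours. With maternal-gene scaling the psmb5 difference was -0.16.

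The courses were also compared by their slopes between 2 and 7 hpf, with 6 libraries for each treatment. The slope was lower in α-amanitin than in wild type for 15 of 48 psm genes, against 23.1% of all genes, and higher for 6, against 29.4%, whereas with maternal-gene scaling 33 were lower, against 36.4%, and 3 higher, against 18.5%. Without the libraries of 3 hpf 7 slopes were lower, against 2977 of all 15868 genes tested. Without 6 hpf 6 were lower (2609 of 15698), and without 7 hpf 6 (2404 of 15578). The median psm difference was -0.19 log2 units per hour, against 0.12 over all genes, and with the scaling it was -0.44 against -0.14. The lower slopes fell on 5 of 8 alpha ring, 4 of 7 standard beta ring, 3 of 7 cap ATPase and 3 of 12 other cap genes. The higher slopes fell on 4 of 5 activators, 1 of 6 assembly factors and 1 cap gene.

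Psmb6 had the largest slope difference, -1.33 ± 0.20 log2 units per hour (SE, limma adjusted p = 0.000554). Psma6b followed with -0.98 ± 0.17 (adjusted p = 0.00109), psma1 with -0.95 ± 0.14 (adjusted p = 0.000518) and psmb7 with -0.65 ± 0.09 (adjusted p = 0.000448). In the other direction, psme4a differed by 0.87 ± 0.16 (adjusted p = 0.00141), psmf1 by 0.66 ± 0.11 (adjusted p = 0.000951) and psme4b by 0.58 ± 0.12 (adjusted p = 0.00217). These 7 genes kept their calls when any single hour was left out and with maternal-gene scaling. Psme3 differed by 0.40 ± 0.11 (adjusted p = 0.00847), a call lost without the 7 hpf libraries and with maternal-gene scaling.

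The slope in α-amanitin libraries alone measures how a maternal poly(A) mRNA moved relative to all others once new transcription was blocked. It was tested as the change of ln TPM per hour over 12 libraries. Of 50 psm genes tested, 13 had a positive slope, against 23.7% of all genes, and 7 a negative slope, against 37.5%, and with maternal-gene scaling 20 were positive, against 34.4%, and 7 negative, against 34.2%. Without the 2 hpf library 8 were positive and 11 negative, against 2931 and 5840 of all 13977 genes tested. The psm median was 0.01 per hour, against -0.03 over all genes, and with the scaling 0.04 against 0.00. A positive slope says that a gene's share of the poly(A) RNA grew. Slower loss than the average and a longer poly(A) tail cannot be told apart here.

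The steepest loss was that of psmg3, which in α-amanitin had 67.6, 40.2, 11.4 and 6.29 TPM at 2, 4, 6 and 7.5 hpf. Its slope was -0.46 ± 0.04 per hour (SE, limma adjusted p = 2.95e-07). A partner chaperone of core assembly, psmg1, had a slope of -0.20 ± 0.03 (adjusted p = 8.87e-05), and the cap gene psmd12 had one of -0.16 ± 0.04 (adjusted p = 0.00151). Psmf1, which fell in wild type, had a slope of -0.10 ± 0.02 (adjusted p = 0.00174), with 77.8 TPM at 2 hpf and 50.0 TPM at 7.5 hpf. The negative calls of psmc6 and psmd6 complete the psm subunits, that of psmd6 being lost without the 7.5 hpf library. At the other end, the cap subunit gene psmd3 had 22.8 TPM at 2 hpf and 48.5 TPM at 7.5 hpf (0.19 ± 0.03, adjusted p = 3.10e-05). Psmd4b (0.18 ± 0.06, adjusted p = 0.0115), psma2 (0.17 ± 0.06, adjusted p = 0.0177) and psmc4 (0.14 ± 0.03, adjusted p = 0.00288) followed. Without the 2 hpf library psmd4b (0.10) and psma2 (0.08) did not pass. In α-amanitin RNA psmb5 (0.08 ± 0.02, adjusted p = 0.00383) and psme3 (0.08 ± 0.02, adjusted p = 0.00882) also had positive slopes. Psmb6 did not pass in this test (adjusted p = 0.857).

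Among the psm genes, 5 pairs have symbols that differ only in a final a or b, those of psma6, psmc1, psmd4, psmd11 and psme4, and the copies behaved differently. Psma6l, a further gene with a psma6 name, did not exceed 2.12 TPM in any library and was left out of the pairs. Reads shared between near-identical copies were assigned by the authors' quantifier, so the split within a pair is uncertain. In total RNA the share of the b copy was higher at 5 to 8 hpf than at 0 to 3 hpf in all 5 pairs, without overlap between the 4 libraries of each window. How often other gene pairs separate in this way was not counted. Among single genes 55.1% were lower late and 19.8% higher late without overlap in these windows. Psmd4b held 35.9% to 74.2% of its pair late, against 21.7% to 25.8% early. Psmd11b held 18.1% to 47.6% late, against 14.6% to 15.2% early. The main copy of the psmd4 pair in total RNA therefore changed from psmd4a to psmd4b by 6 hpf. Psmc1b held 56.0% to 63.9% late, against 42.1% to 43.9% early. Psma6b held 10.1% to 24.2% late, against 6.11% to 8.89% early. In the psme4 pair, where both copies declined in TPM, the b copy held 93.0% to 98.7% late, against 88.7% to 89.9% early. A two-sided exact permutation test of the log2 ratio of the copies, with 4 libraries in each window, gave p = 0.0286 for each pair, the smallest value that 4 against 4 allows (adjusted p = 0.0429 over 15 tests). The hours are ordered and are not replicates, so any steady drift of a ratio with hour gives this value. In poly(A) RNA the same windows did not overlap for psma6b (8.66% to 24.4% late, against 0.368% to 2.03% early), psmd4b (46.6% to 75.1% late, against 26.5% to 40.2% early) and psmd11b (30.9% to 51.6% late, against 19.96% to 30.2% early), with exact permutation p = 0.0286 and adjusted p = 0.0429 for each. They overlapped for psmc1b, which held 58.6% to 66.9% late, against 49.5% to 67.7% early (exact permutation p = 0.171, adjusted p = 0.171), and for psme4b, which held 93.9% to 98.5% late, against 86.3% to 94.9% early (exact permutation p = 0.143, adjusted p = 0.165). These ratios compare genes within a library and do not depend on the scaling of the libraries.

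**Figure D5:**
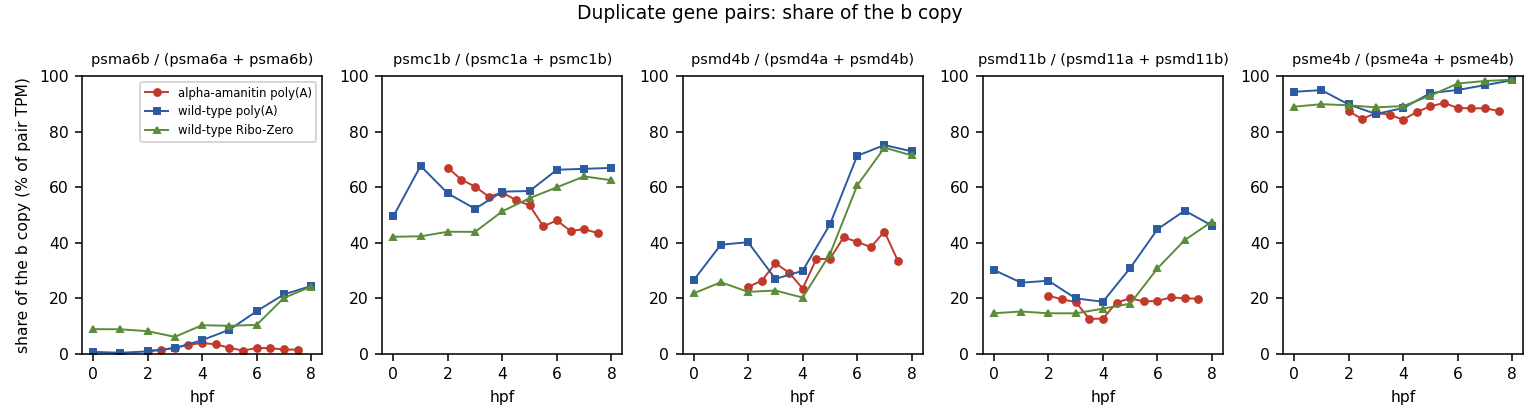
Share of the b copy in the summed TPM of each duplicate pair (y axes, percent) against hours post-fertilization (hpf), for α-amanitin poly(A) (circles), wild-type poly(A) (squares) and wild-type Ribo-Zero (triangles) libraries. Psmd4b reaches 75.1% in wild-type poly(A) and 74.2% in Ribo-Zero RNA, and at most 44.0% in the α-amanitin libraries of 4 to 7 hpf.

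The same shares were compared between treatments in poly(A) RNA. At 4, 5, 6 and 7 hpf psma6b held 1.56% to 3.90% of its pair in α-amanitin, against 4.92% to 21.4% in wild type, and psmc1b held 44.9% to 58.1% in α-amanitin, against 58.4% to 66.6% in wild type (exact permutation p = 0.0286 and adjusted p = 0.0429 for both pairs, n = 4 libraries each). For psmd4b the shares were 23.5% to 44.0% in α-amanitin, against 29.9% to 75.1% in wild type (exact permutation p = 0.171, adjusted p = 0.171). For psmd11b they were 12.7% to 19.995% in α-amanitin, against 18.7% to 51.6% in wild type (exact permutation p = 0.114, adjusted p = 0.143). Psme4b held 84.3% to 89.1% in α-amanitin, against 88.5% to 96.7% in wild type (exact permutation p = 0.0857, adjusted p = 0.117). In these last 3 pairs the ranges over the 4 hours overlapped, but at each single hour the b share was lower in α-amanitin. The permutation test did not pair libraries by hour, so change across hours counted as scatter in it. Psmd11b also had the lower share in α-amanitin at 2 and 3 hpf (20.9% and 18.7%, against 26.3% and 19.96%). At 2 hpf the shares of psmd4b (24.1% against 40.2%) and psme4b (87.3% against 89.8%) were lower in α-amanitin too. At 3 hpf both were higher there (32.6% against 27.0% and 86.8% against 86.3%). Psma6b and psmc1b had the higher share in α-amanitin at 2 and 3 hpf. Within the psmd11 pair the copies also differed in total RNA, where psmd11a had 75.2, 34.8, 28.0 and 27.4 TPM late, against 108, 97.1, 99.8 and 96.7 TPM early, and psmd11b had 16.6, 15.5, 19.4 and 24.9 TPM late, against 18.5, 17.4, 17.1 and 16.5 TPM early.

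Psmc3ip, the meiotic recombination gene that shares the name, is described apart from the subunits. In α-amanitin it had 54.25 TPM at 2 hpf, 133 TPM at 3.5 hpf and 15.0 TPM at 7.5 hpf. Its slope was -0.33 ± 0.06 per hour over 12 libraries (SE, limma adjusted p = 0.000440). In wild-type poly(A) RNA it had 53.8, 52.1, 43.2 and 51.7 TPM at 5 to 8 hpf, against 7.97, 5.44, 37.6 and 55.8 TPM at 0 to 3 hpf. In Ribo-Zero RNA it had 24.4 TPM at 6 hpf and 70.6 TPM at 0 hpf. Its poly(A) over Ribo-Zero ratio in TPM rose by 3.90 log2 units, against a psm median of 2.67, as for many subunits.

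Other genes of the ubiquitin-proteasome pathway were read from a list of 32 names, of which 29 were found. In α-amanitin at 4 to 7 hpf, 4 of the 27 tested were lower, against 21.8% of all genes, and 3 were higher, against 23.8%, and with maternal-gene scaling 11 were lower (30.2% of all genes) and 2 higher (9.23%). Among the lower ones were the ubiquitin gene ubb (log2 difference -1.28 ± 0.30, SE, limma adjusted p = 0.0133), the shuttle factor ubqln4 (-1.05 ± 0.29, adjusted p = 0.0211) and zfand5a (-1.06 ± 0.24, adjusted p = 0.0115). Nploc4, a cofactor of the VCP unfoldase (2.04 ± 0.40, adjusted p = 0.00611), the ubiquitin ligase gene ube3c (1.87 ± 0.53, adjusted p = 0.0234) and the ubiquitin-activating enzyme gene uba1 (1.26 ± 0.31, adjusted p = 0.0147) were higher. In total RNA, 6 of 28 tested were higher late than early (22.1% of all genes) and 12 were lower (57.2%). Ube3c was among these 12, with a log2 difference of -2.46 in TPM. With maternal-gene scaling 22 were higher (45.7%) and 2 lower (20.1%). In wild-type poly(A) RNA 9 of 26 rose, near the 30.1% of all genes, and 2 fell, against 20.3%, with 12 and 1 under the scaling (38.3% and 19.2% of all genes). The ratio of poly(A) over total RNA rose for 15 of 27, near the 58.2% of all genes, and fell for 2, against 5.83%, with 5 and 10 under the scaling (19.2% and 22.3% of all genes). Among the risers in that ratio were 3 partners of the cap, sem1 (4.08 log2 units), the ubiquitin receptor gene adrm1 (3.54) and the deubiquitinase gene uchl5 (3.11).

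Over the 30 libraries the genes whose log2 TPM followed the psm median most closely, among 9167 genes with a mean of at least 10 TPM, were FTL (Pearson r = 0.963), shfm1 (r = 0.962), COX5B (r = 0.957), rps19bp1 (r = 0.954) and hikeshi (r = 0.954). These correlations are descriptions over libraries that share treatment, hour and RNA selection. Shfm1 is the name the tables give to sem1, the smallest cap subunit, which the psm symbols do not cover. PSMD2 and PSMD4, written in capitals in the tables, also lie outside the rule. PSMD2, for a large cap scaffold subunit, had 44.2 to 143 TPM in α-amanitin libraries, 12.4 to 92.5 TPM in wild-type poly(A) libraries and 44.5 to 64.5 TPM in Ribo-Zero libraries, and PSMD4 did not exceed 0.95 TPM.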

How the data were processed

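The authors sequenced poly(A)-selected and ribosomal RNA-depleted libraries of pooled embryos, demultiplexed them with bcl2fastq 2.18, aligned reads with STAR 2.7.3a to danRer11 and quantified genes with RSEM. The deposited values are TPM (transcripts per 1000000), rounded to 2 decimals and with the same total in each library, so read depth is unknown, and no counting interval can be given. Ribosomal depletion and poly(A) selection differ in the RNA they keep, and maternal mRNA with a short tail is under-represented in poly(A) libraries.

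Here, log2(TPM + 0.1), or ln(TPM + 0.1) for the α-amanitin slope, was fitted with limma 3.58.1 in R 4.3.3 (trended empirical Bayes, two-sided) on all genes with a mean of at least 1 TPM in the libraries of the fit, between 13977 and 16028 genes, and p-values were adjusted by the Benjamini-Hochberg method over all of them with a threshold of 0.05. Fold changes on this scale understate changes of low genes. Between 47 and 50 of the 54 psm genes passed the filter, and those left out were described by their values. Hours stood in for replicates, since each condition had 1 library here. Wild-type poly(A) libraries entered several comparisons. The test was also run on simulated data with 200 changed genes. Their scatter was independent between libraries, so that run cannot check the p-values for ordered hours that drift.

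Alternatives were pseudocounts of 0.01 and 1, mean TPM above 0 or of at least 5, TPM without mitochondrial genes, other windows, hour as a factor, each hour left out, and median-of-ratios scaling over maternal genes (at least 5 TPM in Ribo-Zero RNA at 0 and 1 hpf). That scaling moved the median over all genes by more than 0.1 log2 units in 5 of 6 comparisons. The largest moves were from -0.92 to 0.54 in Ribo-Zero RNA, from 1.47 to 0.08 in the ratio and from 0.40 to -0.33 between treatments. The scaling takes the median maternal gene as unchanged between libraries, which was not tested. Its divisors for Ribo-Zero libraries were 1.45 at 0 hpf and 0.43 at 7 hpf, so counts under it rest on that assumption. Named genes were the catalytic, immune-type, duplicate, activator, psma8 and psmd14 genes, and the 4 highest and 4 lowest estimates of each comparison. The members and lists were chosen with earlier results of these data known. Values of 1 counted pathway gene are not reported here, and promoter sequences were not analysed here. Figures were drawn with matplotlib 3.10.9.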

Additional observations from a re-analysis of the deposited data

Results flagged for a closer look

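Slopes between 2 and 7 hpf that differed between α-amanitin and wild-type poly(A) libraries are listed here for the genes of the naming rule above. The test was limma's treatment by hour interaction over all genes, in log2 TPM per hour (α-amanitin minus wild type, 6 libraries each). It called 15 lower (23.1% of all genes) and 6 higher (29.4% of all genes) psm slopes, not all of them listed. The list holds only the named genes, so some larger differences are left out. Among those not listed, the assembly factor psmd5 had a higher slope in α-amanitin (0.42). A cap ATPase gene (-0.53) and another cap gene (-0.53), also not listed, had lower ones. Core and cap genes had lower slopes in α-amanitin: psmb6 differed by -1.33, psma6b by -0.98, psma1 by -0.95, psmb7 by -0.65, psmc1b by -0.50, psmd4b by -0.47 and psma8 by -0.26. Of the listed genes, 4 activators or regulators and 1 cap gene had higher slopes in α-amanitin: psme4a differed by 0.87, psmf1 by 0.66, psme4b by 0.58, psmd11a by 0.42 and psme3 by 0.40. With maternal-gene scaling, the calls of psme3 and psmd11a were lost. Leaving out the libraries of 7 hpf ended the call of psme3, leaving out those of 3, of 6 or of 7 hpf ended the calls of psmd4b, psmd11a and psma8, and leaving out those of 5 hpf also ended that of psma8.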

How the results depend on the processing

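Alternative values were counted for 83 results: the 4 highest and 4 lowest psm estimates of each comparison, and the passing results of the other named genes. Of these 1291 values, 1162 kept their direction and side of the threshold, 96 lost the call and 13 gained a call. The other 20 changed sign, none of them on leaving out an hour. The 83 results were picked by size or call, so these counts do not describe the whole family. Median-of-ratios scaling over maternal genes moved most counts of psm genes. The α-amanitin slope was positive for 20 genes with it, and the shares over all genes under this scaling are given with each result above. The α-amanitin difference was higher for 3 and lower for 20, and the slope difference higher for 3 and lower for 33. In Ribo-Zero RNA 34 rose and 3 fell, in wild-type poly(A) RNA 3 fell, and the ratio rose for 21 and fell for 12. That scaling turned the Ribo-Zero changes of psme4b (0.44), psmc1a (0.16), psmb10 (0.69) and psmd14 (0.47) and the ratio changes of psmd14 (-0.75) and psmb5 (-0.20). Among the other called psm genes it turned psmd1 (0.98), psmc4 (0.92), psmc6 (0.54), psmd3 (0.49), psmg1 (0.36), psmc3ip (0.24) and psmg3 (0.11) in Ribo-Zero RNA and psmd12 (-0.31) and psma3 (-0.25) in the ratio. Restricting the α-amanitin slope to 2 to 4 hpf left 1 negative call, against 337 of all 14210 genes tested. That window turned psme3 (-0.13), psmf1 (0.015), psmc3ip (0.39), psmg1 (2.0e-05), psmd12 (0.17) and psmb5 (-0.0079), and of the other called genes psmc3 (-0.18) and psmd6 (0.23). Restricting the slope to 4.5 to 7.5 hpf left 0 positive calls, against 506 of all 13578 genes tested, and turned psmd11b (-0.016). With hour as a factor, which pairs libraries of the same hour, 2 genes were higher and 1 was lower in α-amanitin (3.94% and 13.1% of all genes). At 2 and 3 hpf, with only 2 libraries for each treatment, 13 were higher and 0 lower (8.69% and 3.67% of all genes). There psmb6 (0.45), psma6b (0.78), psmd4b (0.20), psmb7 (0.55), psma1 (0.63) and psme4a (-0.29) had the opposite sign. In Ribo-Zero RNA 5 psm genes rose between 0 to 2 and 6 to 8 hpf, against 3912 of all 15835 genes tested. By a slope over 9 hours 3 rose, against 3547 of 15745. For the ratio, psme1 turned to 0.027 with 0 to 2 hpf as the early window. With 3 and 4 hpf as the late window 1 psm gene fell, against 702 of all 13596 genes tested. Leaving out each hour gave 8 to 16 positive and 6 to 11 negative α-amanitin slopes (2890 to 3633 and 4497 to 5840 over all genes). Between treatments, 1 to 8 genes were higher and 0 to 13 lower in α-amanitin (88 to 5626 and 1211 to 4519). Slope differences were higher for 4 to 6 and lower for 6 to 17 (1935 to 4792 and 2404 to 3823). In Ribo-Zero RNA 0 to 6 rose and 16 to 21 fell (2980 to 3948 and 7970 to 9473). In poly(A) RNA 22 to 31 rose and 3 to 7 fell (3942 to 5390 and 2139 to 4356). The ratio rose for 30 to 36 and fell for 1 to 2 (6579 to 9159 and 431 to 945). These fits tested between 13912 and 16131 genes. The cause of these changes was not tested, apart from the fewer libraries that some settings use. The promoter description was not run.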
